A study of Mus musculus with 4 samples.

Results

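Dietary fat leaves the enterocyte as chylomicrons, and 8 genes of that route were followed here: the apolipoprotein genes Apoa1, Apoa4, Apoc2, Apoc3 and Apoe, the lipid transfer protein gene Mttp, and the acyltransferase genes Dgat1 and Dgat2. They were chosen by name, through every probe set that the platform table gives to one of them, which was 14 of 20380 probe sets with 1 gene and 8 of 12393 genes. All 8 passed the filter on mean signal that left 8036 measured genes. RNA came from the intestinal mucosa of male mice at 10 weeks of age, from the inbred strains A/J and C57BL/6J, kept for 2 weeks on a low-fat (LF) or a high-fat (HF) diet. Each of the 4 groups held 6 mice, and its single array was hybridised with pooled RNA from 2 of them that were near the group's average weight. The groups were A/J LF, A/J HF, C57BL/6J LF and C57BL/6J HF with 1 array each. The segment of the intestine and the make-up of the diets are not given in the sources used here.

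In the enterocyte, absorbed fatty acids and monoacylglycerol are built back into triglyceride in the endoplasmic reticulum, where the acyltransferases encoded by Dgat1 and Dgat2 catalyse the last step. Microsomal triglyceride transfer protein, encoded by Mttp, loads that lipid onto apolipoprotein B to start the chylomicron particle. The smaller apolipoproteins join the surface and steer what happens later: apolipoprotein C-II activates lipoprotein lipase, C-III restrains it, and E is a ligand for uptake of remnants by the liver.

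Apoa1, Apoc3 and Apoa4 are consecutive protein-coding genes on chromosome 9, and Apoc2 and Apoe lie on chromosome 7. Promoter windows from RefSeq (GRCm38.p6) were found for 5 of the 8 genes by symbol. The 250 bases before the annotated start of Apoa1 and Apoa4 are shown because these cluster neighbours had diet ratios of opposite sign, and those of Apoc2 and Mttp because these genes, like Apoa4, were higher on both HF arrays. Capitals mark matches to 4 motifs searched on both strands, chosen after the sequences were read: the nuclear receptor half-sites AGGTCA and AGTTCA, the cyclic AMP response half-site TGACGT, and TATAAA. Sequences run 5′ to 3′ on the gene's strand, so a motif on the opposite strand appears as its reverse complement.
Apoa1 (chr9:46228380-46228629, plus strand): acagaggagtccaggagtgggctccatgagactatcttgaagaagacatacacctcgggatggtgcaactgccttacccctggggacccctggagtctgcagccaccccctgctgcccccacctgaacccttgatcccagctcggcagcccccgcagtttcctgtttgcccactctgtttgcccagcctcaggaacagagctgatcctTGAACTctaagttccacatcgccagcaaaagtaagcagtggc
Apoa4 (chr9:46240594-46240843, plus strand): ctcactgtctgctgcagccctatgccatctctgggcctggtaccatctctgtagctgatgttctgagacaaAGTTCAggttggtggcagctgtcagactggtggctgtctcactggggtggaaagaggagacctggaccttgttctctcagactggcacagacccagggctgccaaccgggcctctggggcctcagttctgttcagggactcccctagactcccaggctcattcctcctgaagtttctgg
Apoc2 (chr7:19677942-19678191, minus strand): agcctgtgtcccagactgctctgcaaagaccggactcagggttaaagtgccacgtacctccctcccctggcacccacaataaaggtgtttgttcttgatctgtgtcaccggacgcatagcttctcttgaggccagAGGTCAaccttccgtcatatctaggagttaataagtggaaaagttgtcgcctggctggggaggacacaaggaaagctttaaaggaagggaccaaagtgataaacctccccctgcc
Mttp (chr3:138143419-138143668, minus strand): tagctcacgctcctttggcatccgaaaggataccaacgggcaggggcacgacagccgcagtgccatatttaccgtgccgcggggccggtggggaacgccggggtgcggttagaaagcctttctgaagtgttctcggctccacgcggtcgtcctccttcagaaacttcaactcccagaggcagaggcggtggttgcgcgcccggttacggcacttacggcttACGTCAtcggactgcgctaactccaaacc
Both cluster genes held 1 AGTTCA and no other searched motif, with the first base 42 bases before the start in Apoa1 (opposite strand) and 179 before it in Apoa4. The Apoc2 window held 1 AGGTCA, 115 bases before the start, and the Mttp window 1 TGACGT on the opposite strand, 29 bases before it. Of 32851 windows of this length in the RefSeq table, 14.0% held AGGTCA, 11.8% AGTTCA, 6.47% TGACGT and 12.4% TATAAA, so single matches of this kind are common. A match describes letters in the window and is not evidence of binding, and the arrays measured no binding.

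Signals were brought to a common trimmed mean of 500 on each array, and 100 was the lowest scaled value allowed (the floor) when log2 was taken. Where a gene had several probe sets, the one with the highest mean signal stands for it, and the others are given beside it. The probe sets of Apoe and Dgat1, all 4 of Apoa1 and the brighter one of Apoa4 carry suffixes that mark probes shared between transcripts, so their signal may hold that of related transcripts. With 1 array per group there is no spread between replicates, and a ratio of 2 arrays has no test. Different probe sets of one gene on the same arrays give a sense of measurement error: over 2878 genes with at least 2 measured probe sets, the log2 ratios of the brightest pair differed by a median of 0.27 for diet in A/J, 0.25 for diet in C57BL/6J, 0.32 for strain on LF and 0.27 for strain on HF. Of the enterocyte markers, 10 of 10 on the array were above the floor on every array, with summed signals between 135610 and 144020. Of 5 ileal markers on the array, the defining genes Fabp6 and Slc10a2 were under the floor on each array, at no more than 33.4 and 23.5, as was Fgf15, but Guca2a was 9279, 6236, 3509 and 2055 on A/J LF, A/J HF, C57BL/6J LF and C57BL/6J HF, and Osr2 was between 129 and 340. The ileal list thus summed to 9605 and 6684 in A/J and 3749 and 2212 in C57BL/6J. Of 9 hepatocyte markers, albumin (Alb) was under the floor on each array, at 23.2 to 60.9, and 3, 1, 2 and 1 of the list reached the floor on the same arrays (Ttr, Apoh or Tat, the highest being Ttr at 206 on C57BL/6J HF). Arrays stood apart in other ways. The 5′ probe set of 18S ribosomal RNA was 11010 on C57BL/6J LF against 84.4 to 1675 on the others. The summed exocrine pancreas markers were 2037 on A/J HF against 84575 to 135150, the highest being on C57BL/6J HF. Summed stomach markers were 9504 on C57BL/6J HF against 1273 to 3210 on the others. The summed T cell markers were 13020 on C57BL/6J LF against 3075 to 7183. The part of these differences in the values below was not tested.

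The signal of these genes was near the top of the arrays. On each array, 6 of the 8 had under 1% of all probe sets brighter than their own, the exceptions being Apoe and Dgat2. Between them, the 2 brightest Apoa1 probe sets held the 2 highest signals of all probe sets on all 4 arrays, with deposited intensities of up to 14032. Levels of different genes are not set against each other here, because probe sets differ in how brightly they report.

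**Figure D1:**
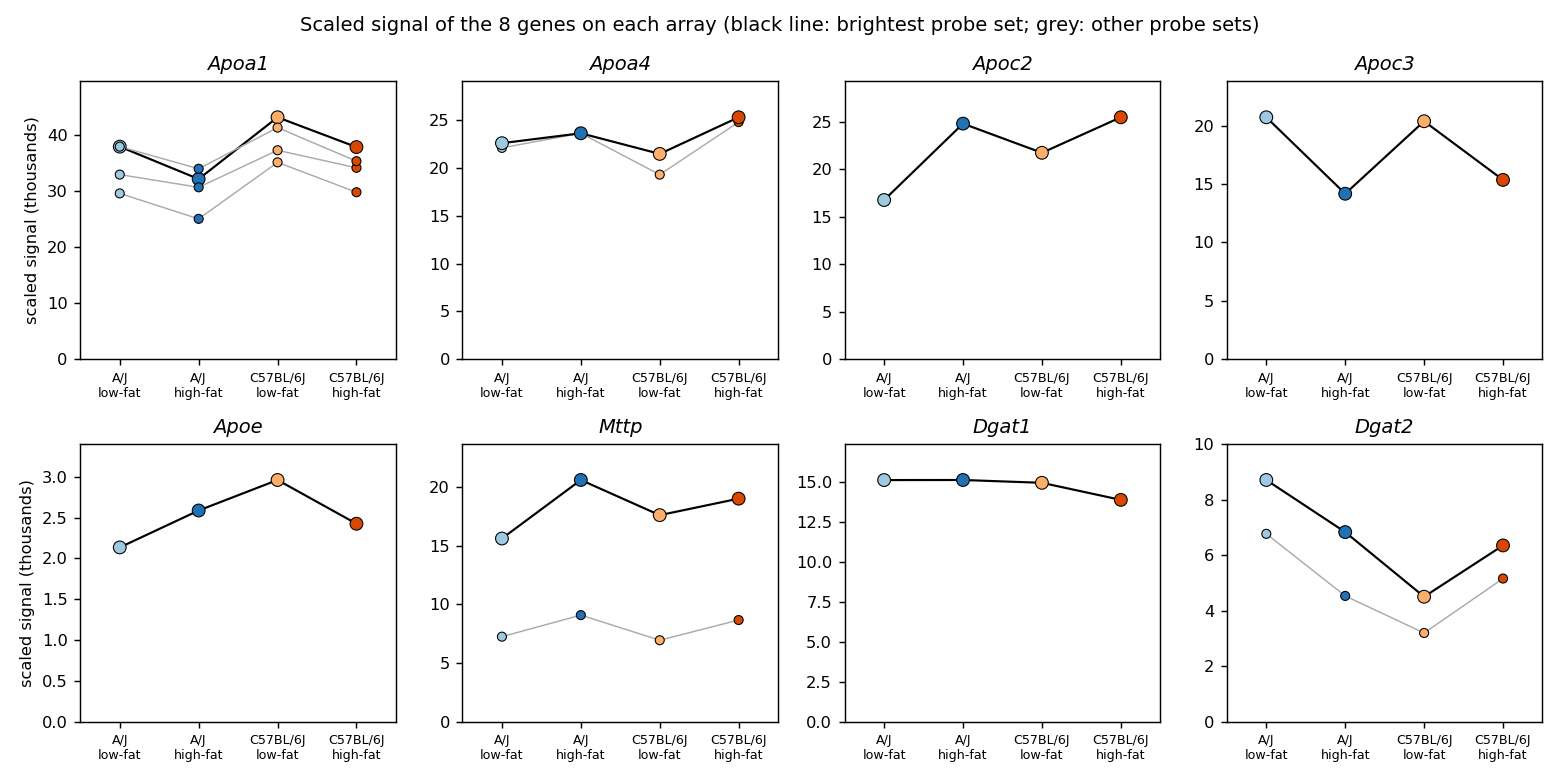
Scaled signal (vertical axis, from 0) of each gene on the 4 arrays, one point per probe set; the black line joins the probe set with the highest mean and grey lines the others. Apoc3 is lower on both HF arrays than on either LF array, and Dgat2 is lowest on C57BL/6J LF at 4503.

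Among the apolipoproteins that frame the particle, Apoa1, the main protein of high-density lipoprotein and a surface protein of new chylomicrons, was lower on HF in both strains. Its scaled signal was 37912 on A/J LF, 32130 on A/J HF, 43150 on C57BL/6J LF and 37832 on C57BL/6J HF. C57BL/6J LF was thus highest and A/J HF lowest, and the same array was highest and the same lowest in all 4 probe sets. The HF signal was 1.18-fold lower in A/J and 1.14-fold lower in C57BL/6J, and over the 4 probe sets the diet difference lay between -0.10 and -0.24 (log2) in A/J and between -0.13 and -0.24 in C57BL/6J. Shifts of this size are ordinary here, since 21.8% of measured genes had a lower diet ratio in A/J and 27.7% in C57BL/6J. By limma over all 4 arrays, the diet term was -0.21 (log2; SE 0.19, 95% interval -0.64 to 0.21, adjusted p = 0.839), so it did not pass. In bulk mucosa, fewer cells of a type and less RNA per cell cannot be told apart. Between strains, A/J was 1.14-fold lower on LF and 1.18-fold lower on HF, and on HF this turned to 0.05 (log2) higher when the arrays were left unscaled.

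Apoa4, which encodes an apolipoprotein made mainly in the small intestine and known to respond to fat absorption, was higher on HF by a small margin. Its scaled signal was 22608 on A/J LF, 23646 on A/J HF, 21486 on C57BL/6J LF and 25319 on C57BL/6J HF. Both HF arrays lay above both LF arrays in each of its 2 probe sets, with C57BL/6J HF highest and C57BL/6J LF lowest. The share of all measured genes split by diet in this way is not given here. Such an order of the arrays is therefore only a description, for this gene and those below. The HF signal was 1.05-fold higher in A/J and 1.18-fold higher in C57BL/6J, with 1.07-fold and 1.29-fold in the other probe set (1417761_at), which has no such suffix. As log2, the C57BL/6J ratio was 0.24 in the first and 0.36 in the second. In the limma fit the diet term was 0.15 (SE 0.20, 95% interval -0.28 to 0.58, adjusted p = 0.899). Strains differed by at most 1.07-fold in the main probe set, and the sign on HF changed without scaling, from -0.10 to 0.18 (log2).

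The C apolipoproteins that set the activity of lipoprotein lipase had diet ratios of opposite sign. Apoc3, the inhibitor, had a scaled signal of 20733 on A/J LF, 14177 on A/J HF, 20394 on C57BL/6J LF and 15364 on C57BL/6J HF. The LF arrays of the strains were nearly level, at 1.02-fold, and both HF arrays were below them. On HF the signal was 1.46-fold lower in A/J, where 5.51% of measured genes had a lower ratio, and 1.33-fold lower in C57BL/6J, where 10.7% did. The limma diet term was -0.48 (SE 0.20, 95% interval -0.90 to -0.05), the largest in size of the 8, with an unadjusted p of 0.0306 and an adjusted p of 0.462 over 8036 genes. Under the alternatives the adjusted p ranged from 0.116 to 1, so no setting made it a call, and the direction was the same in each.

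Apoc2, the activator of the lipase, was higher on HF. Its scaled signal was 16760 on A/J LF, 24813 on A/J HF, 21738 on C57BL/6J LF and 25481 on C57BL/6J HF. Again the HF arrays lay close together, at 1.03-fold, and above both LF arrays, of which A/J LF was the lower. The HF signal was 1.48-fold higher in A/J, a ratio exceeded by 5.36% of measured genes, and 1.17-fold higher in C57BL/6J. The diet term of the limma fit was 0.40 (SE 0.20, 95% interval -0.04 to 0.83, adjusted p = 0.595). On LF the A/J signal was 1.30-fold lower than that of C57BL/6J, and the strain term was -0.21 (limma, adjusted p = 0.621).

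Apoe had the lowest rank of the 8 on each array and no common diet direction. Its scaled signal was 2134 on A/J LF, 2586 on A/J HF, 2960 on C57BL/6J LF and 2424 on C57BL/6J HF. On HF it was 1.21-fold higher in A/J and 1.22-fold lower in C57BL/6J, so the diet term was -0.0054 (log2, limma, SE 0.21, adjusted p = 0.997). Macrophages also make apolipoprotein E. Of the 12 macrophage markers, 11 were above the floor on each array, with summed signals of 9643, 11183, 9890 and 10277 in the same order as above, and their part in the Apoe values was not tested. Csf1r, a macrophage growth factor receptor and the brightest of the list on 3 arrays, was 3282, 3538, 2627 and 2927, and Lyz2, a lysozyme, was 2228, 2639, 2627 and 2478.

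Mttp had 2 probe sets that differed on one point. In the brighter one its scaled signal was 15620 on A/J LF, 20609 on A/J HF, 17611 on C57BL/6J LF and 19019 on C57BL/6J HF, and in the other (1419400_at) 7252, 9090, 6948 and 8670. Both HF arrays were above both LF arrays in each probe set, with A/J HF highest. The HF signal was 1.32-fold higher in A/J and 1.08-fold higher in C57BL/6J, which as log2 is 0.40 and 0.11, against 0.33 and 0.32 in the other probe set. The C57BL/6J ratio of the brighter probe set turned to -0.04 (log2) without scaling. In limma the diet term was 0.26 (SE 0.20, 95% interval -0.18 to 0.69, adjusted p = 0.795), and 0.32 (adjusted p = 0.738) for the other probe set when every probe set entered as its own feature. Which strain was higher on LF depended on the probe set, with A/J 1.13-fold lower in one and 1.04-fold higher in the other.

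Of the acyltransferases, Dgat1, which encodes the main intestinal enzyme of the final step, had the narrowest span of the 8 genes. Its scaled signal was 15096 on A/J LF, 15101 on A/J HF, 14925 on C57BL/6J LF and 13859 on C57BL/6J HF. The highest was 1.09-fold above the lowest, and 97.9% of measured genes had a wider span. The diet term was -0.05 (SE 0.20) and the strain term 0.07 (SE 0.20), with limma adjusted p-values of 0.972 and 0.884. The 95% interval of the diet term, -0.48 to 0.37, does not show that Dgat1 was equal between diets, only that a change beyond it in size was not seen.

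Dgat2, whose enzyme catalyses the same reaction but belongs to another protein family, had the widest span. The scaled signal of its brighter probe set was 8708 on A/J LF, 6831 on A/J HF, 4503 on C57BL/6J LF and 6351 on C57BL/6J HF. The other probe set (1422677_at) gave 6768, 4532, 3197 and 5159. A/J LF was the highest and C57BL/6J LF the lowest in both, while the HF arrays lay between and changed places. On LF the A/J signal was 1.93-fold higher than that of C57BL/6J, and 2.12-fold higher in the other probe set, a ratio that 3.41% of measured genes exceeded in the first case. On HF the strains were 1.08-fold apart with A/J higher, and 1.14-fold apart with A/J lower in the other probe set. Diet went with a lower signal in A/J, by 1.27-fold and 1.49-fold in the 2 probe sets, and with a higher signal in C57BL/6J, by 1.41-fold and 1.61-fold. The strain term was 0.53 (limma, SE 0.23, 95% interval 0.03 to 1.03), with an unadjusted p of 0.0398 and an adjusted p of 0.203, and under the alternatives the adjusted p ranged from 0.0516 to 0.856. That term averages the LF difference of 0.95 (log2) with the HF difference of 0.11. The diet term was 0.07 (limma, SE 0.23, adjusted p = 0.967), the average of ratios of opposite sign. Adipocytes also express Dgat2. Of the 5 adipocyte markers on the array, 3 (Fabp4, Retn and Cidec) were above the floor on every array. Adipoq and Lep were under the floor on each array, at no more than 17.7 and 16.3. The 5 summed to 1302 and 1430 on A/J LF and HF and 915 and 1540 on C57BL/6J LF and HF. Cidec, at 553 to 1060, was the largest part of each sum. The part of these markers in the Dgat2 values was not tested.

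**Figure D2:**
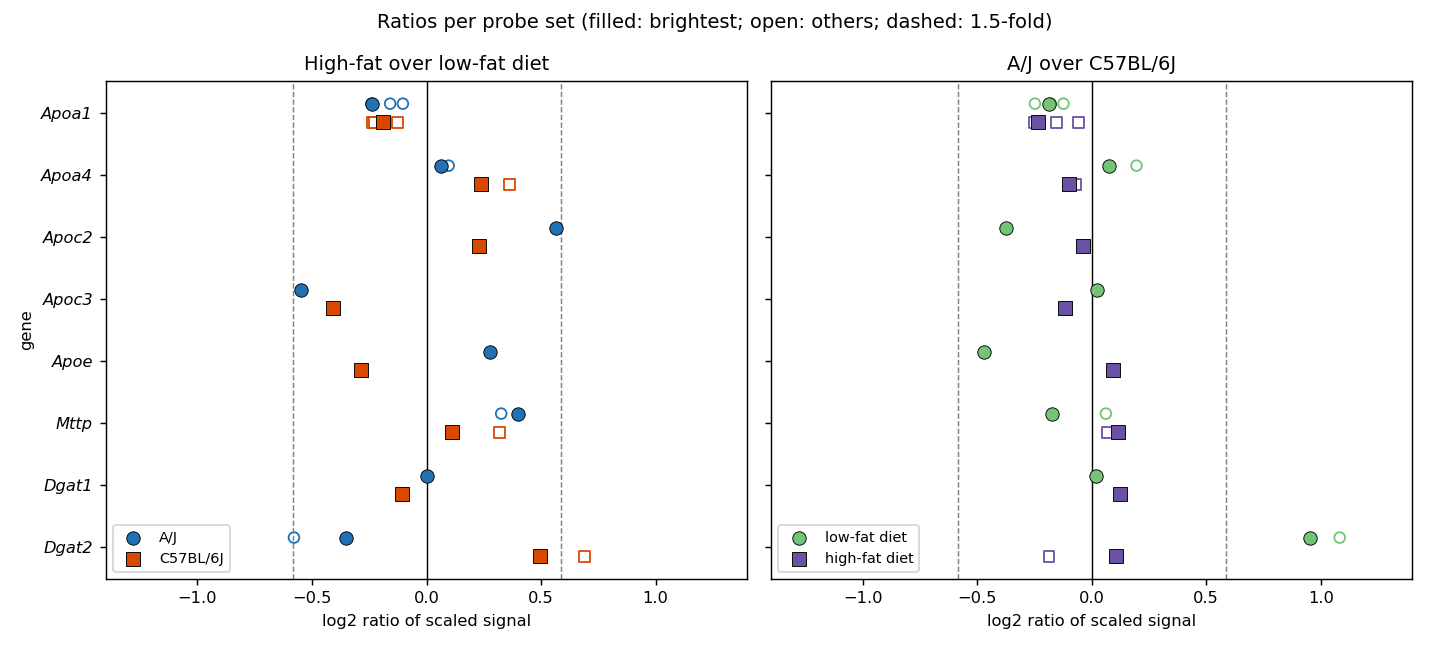
Log2 ratio of scaled signal per gene, for diet in each strain (left) and for strain on each diet (right); filled symbols are the brightest probe set, open symbols the other probe sets, and dashed lines mark 1.5-fold. Only the Dgat2 ratio between strains on LF has its filled symbol beyond the dashed line, at 0.95.

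Set together, the diet comparisons asked whether the machinery of chylomicron assembly differed in the mucosa after 2 weeks of fat, and whether the obesity-resistant A/J and the obesity-prone C57BL/6J did so alike. Between the A/J arrays, 0 of the 8 genes were at least 1.5-fold higher on HF and 0 at least 1.5-fold lower, where 4.99% and 4.7% of measured genes were. Between the C57BL/6J arrays the members counted were again 0 and 0, against 5.13% and 4.63% of measured genes. The median log2 diet ratio of the 8 was 0.033 in A/J, where that of all measured genes was 0.0064, and 0.0020 in C57BL/6J, where it was -0.0066. Apoa1 and Apoc3 were lower on HF in both strains, Apoa4, Apoc2 and Mttp were higher in both, and Apoe, Dgat1 and Dgat2 had ratios of opposite sign, though for Dgat1 the A/J ratio was 0.00053 (log2) and turned to -0.044 unscaled, the sign of C57BL/6J. The diet ratio had the same sign in both strains for 5 of the 8 genes, and for 53.5% of all measured genes. The diet ratio of C57BL/6J minus that of A/J was 0.85 (log2) for Dgat2, a size that 6.88% of measured genes exceeded, and -0.57 for Apoe, which 18.9% exceeded. For Apoc2 and Mttp it was -0.34 and -0.29, for Apoa4, Apoc3, Apoa1 and Dgat1 it lay between -0.11 and 0.17, and the median size over all genes was 0.28. No test of these differences was possible, because a fit with an interaction leaves no residual degree of freedom.

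The strain comparisons on each diet gave 1 gene past 1.5-fold. On LF, 1 of 8 (Dgat2) passed 1.5-fold with A/J the higher strain and 0 with A/J the lower, where 10.9% and 9.23% of measured genes were. On HF the counts were 0 and 0, against 8.37% and 6.88% of measured genes. The median log2 ratio of the 8 genes, A/J over C57BL/6J, was -0.08 on LF and 0.028 on HF, and that of all measured genes 0.024 and 0.039. The ratios of the 8 on HF lay between -0.24 and 0.12. On HF, however, 4 of the 8 signs (Apoa1, Apoa4, Apoc2 and Apoc3) changed when arrays were left unscaled, a setting that moved the median of all genes by 0.28 (log2). That setting changed 1 sign in each of the other comparisons, for Dgat1 in the A/J diet ratio and for Mttp in the other 2. Quantile normalization changed 1 sign, that of Apoc2 between strains on HF.

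In the additive limma fit, which tests the mean effect of each factor with 1 residual degree of freedom, 0 of the 8 genes passed a Benjamini-Hochberg adjusted p of 0.05 in either direction. For diet, 0.423% of measured genes were called higher on HF and 0.187% lower, and for strain 3.83% were called higher in A/J and 3.68% lower. At an unadjusted p under 0.05, 1 of the 8 passed for diet (Apoc3) and 1 for strain (Dgat2). The 95% intervals, which are not adjusted for the number of genes, had half-widths between 0.42 and 0.50 (log2). Even unadjusted, differences well under 1.5-fold could thus not have been told from 0 at this number of arrays. The adjusted cut was stricter. Outside the 8, diet terms of 0.80 for Plin2 and 0.85 for Aadac did not pass (limma adjusted p = 0.132 and 0.0994). Lpl, at 1.05, did (limma adjusted p = 0.0345). A diet change near 1.5-fold in the 8 genes could therefore have gone uncalled. The error of this fit is the strain-by-diet difference of these pools, not a spread between mice or pools of the same group. Limma drew each gene's error towards a value shared by all measured genes, which supplied 11.1 of 12.1 degrees of freedom. The SEs, intervals and p-values therefore rest mostly on that shared error, and little on a gene's own 1 residual degree of freedom.

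**Figure D3:**
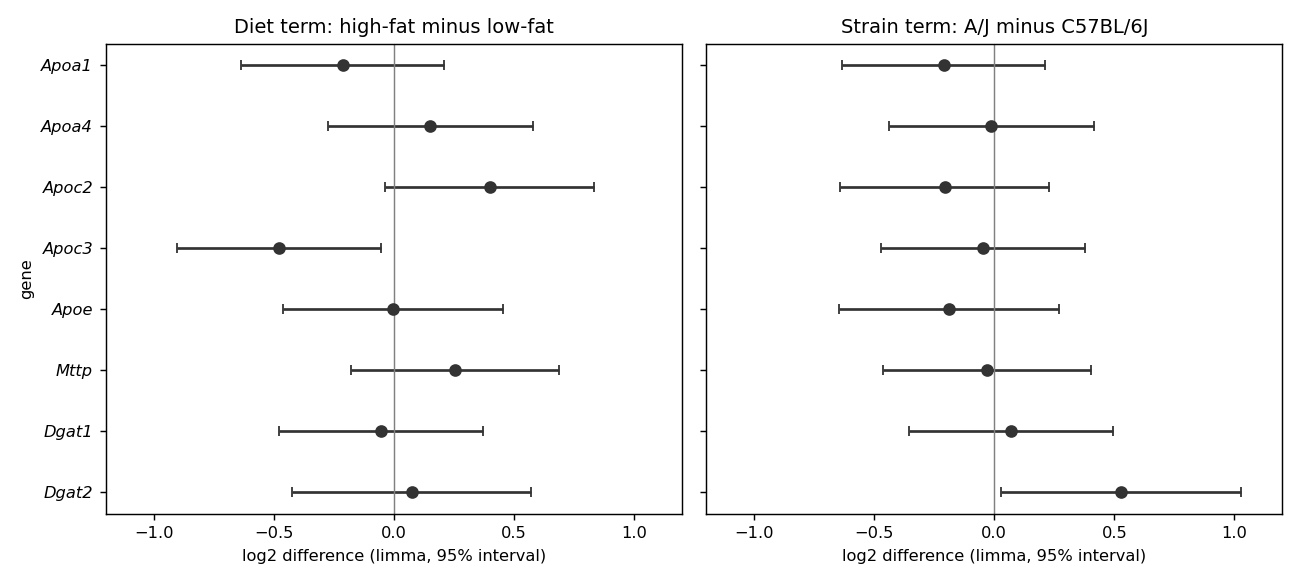
Limma estimates of the diet term (left, HF minus LF) and the strain term (right, A/J minus C57BL/6J) for each gene in log2 units, with 95% intervals as bars. The interval excludes 0 for Apoc3 in the diet term and for Dgat2 in the strain term, before adjustment over 8036 genes.

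Around these genes, 6 lists of the pathway written from general knowledge held 103 genes, of which 71 were measured. Together, 10 of the 71 were at least 1.5-fold higher on HF in A/J and 2 lower, where 4.99% and 4.7% of all measured genes were, and 12 were higher and 2 lower in C57BL/6J, where 5.13% and 4.63% were. For strain, 12 were higher in A/J and 0 lower on LF, against 10.9% and 9.23% of all measured genes, and 14 and 0 on HF, against 8.37% and 6.88%. With unscaled arrays 22 and 26 were at least 1.5-fold apart. By limma 3 of the 71 were called higher on HF and 0 lower, against 0.423% and 0.187% of all measured genes. For strain 6 were called higher in A/J and 0 lower, against 3.83% and 3.68%. The lists share Apob, and Scarb1, Lpl and other members were known from these data before the lists were written, so the counts are a description.

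Genes of chylomicron assembly and export had small diet ratios. Of 19 measured genes, 0 were at least 1.5-fold higher on HF in A/J and 0 lower, against 4.99% and 4.7% of all measured genes. In C57BL/6J 2 were higher and 1 lower on HF, against 5.13% and 4.63%. Limma called 0 for diet, against 0.423% of all measured genes higher on HF and 0.187% lower. For strain it called 0, against 3.83% higher in A/J and 3.68% lower. Median log2 diet ratios were 0.068 in A/J and 0.09 in C57BL/6J. Apob, the structural protein of the particle, had a scaled signal of 16248 on A/J LF, 13787 on A/J HF, 14107 on C57BL/6J LF and 14617 on C57BL/6J HF, with a limma adjusted p of 0.951 for diet. Sec23a and Sec24d, subunits of the COPII vesicle coat, were higher on HF in C57BL/6J by 0.62 and 0.59 (log2). Vamp7, a fusion protein of the vesicles that carry new chylomicrons, was 1.55-fold lower there. Between strains, 0 of the 19 were at least 1.5-fold apart on LF, against 10.9% higher in A/J and 9.23% lower over all measured genes. On HF 2 were higher in A/J and 0 lower, against 8.37% and 6.88%. These were Vamp7, 1.87-fold, and Preb, an activator of coat assembly, 1.56-fold. P4hb, the partner subunit of the Mttp protein, was chosen after its values were seen and was 16950, 19731, 15651 and 19101 in the same order of arrays, with both HF arrays above both LF arrays as for Mttp. Its ratios were 1.16-fold and 1.22-fold.

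Triglyceride synthesis and lipid droplet genes gave 1 of 15 measured genes at least 1.5-fold higher on HF in A/J and 2 in C57BL/6J, with 0 lower in either. Over all measured genes 4.99% were higher and 4.7% lower in A/J, and 5.13% and 4.63% in C57BL/6J. Limma called 0 of the 15 for diet, against 0.423% of all measured genes called higher on HF and 0.187% lower. Plin2, the coat protein of lipid droplets, was higher on HF in both strains, from 3935 to 6650 in A/J and from 2956 to 5315 in C57BL/6J, with a limma diet term of 0.80 (SE 0.19, adjusted p = 0.132). Gpd1, which makes glycerol 3-phosphate, was 1.74-fold higher in A/J than in C57BL/6J on HF, and Lpin2, a phosphatidate phosphatase, 1.59-fold. Mogat1, a monoacylglycerol acyltransferase, was measured in A/J alone, at 283 and 272 on LF and HF against 33.5 and 56.6 in C57BL/6J, both under the floor. Set against the floor, the A/J signal was higher by a factor of at least 2.83 on LF and at least 2.72 on HF. It was called higher in A/J (limma, adjusted p = 0.000511), but that p-value adds no support. Both C57BL/6J values were raised to the floor, which fixed that strain's diet ratio at 0 (log2) and made the gene's own error small. Mogat1 also passed the filter on mean signal only through A/J. The fitted strain term, 1.47 here, moves with the floor, and the adjusted p was 0.23 at a floor of 200 and 0.25 with no filter on mean signal. Mogat2, the main intestinal enzyme of that kind and the protein-coding gene next to Dgat2, was chosen after its values were seen. Its scaled signals were 6911 and 7869 on A/J LF and HF and 9662 and 9726 on C57BL/6J LF and HF, so A/J was lower on both diets, opposite to Dgat2 on LF, with a limma adjusted p for strain of 0.271.

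Triglyceride breakdown was the list with the highest median diet ratio in A/J, 0.46 over 11 genes, and had 0.35 in C57BL/6J. In A/J 5 of 11 were at least 1.5-fold higher on HF and 1 lower, and in C57BL/6J 4 were higher and 0 lower, against the shares of all measured genes given above (4.99% and 4.7%, 5.13% and 4.63%). Ces1f, a carboxylesterase of the endoplasmic reticulum, went from 1011 to 2303 in A/J and from 241 to 1520 in C57BL/6J, and rose by limma (1.92, SE 0.29, adjusted p = 0.00819). That adjusted p ranged from 1e-05 to 1 over the alternatives, and was 0.0865 with quantile normalization. Ces1f was also called higher in A/J (limma strain term 1.33, SE 0.29, adjusted p = 0.0139, and 0.0559 with quantile normalization). G0s2, an inhibitor of adipose triglyceride lipase, was at least 2.88-fold higher on HF in A/J, and Ces1d, another carboxylesterase, at least 2.63-fold lower, and neither passed in limma (adjusted p = 0.195 and 0.167). Mgll, the monoacylglycerol lipase, was 2.14-fold higher in A/J than C57BL/6J on LF and 1.27-fold on HF. That is the order of the brighter Dgat2 probe set, while the other Dgat2 probe set had A/J lower on HF. The share of all measured genes in that order is not given here, so the match is only a description. The limma adjusted p of Mgll for strain was 0.0742.

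Of lipases and receptors that act on the finished particle, 2 of 8 were at least 1.5-fold higher on HF in A/J and 1 lower. In C57BL/6J 3 were higher and 1 lower. The shares of all measured genes were 4.99% and 4.7% in A/J and 5.13% and 4.63% in C57BL/6J. Lpl, the lipase that apolipoprotein C-II activates, went from 180 to 390 in A/J and from 110 to 218 in C57BL/6J, and rose by limma (1.05, SE 0.20, adjusted p = 0.0345). With the mean of its 2 probe sets, of which the second was under the floor on every array, the adjusted p was 0.375, and with quantile normalization it was 0.109. Lpl was also called higher in A/J (limma strain term 0.78, SE 0.20, adjusted p = 0.0323, and 0.0653 with quantile normalization). Angptl4, an inhibitor of that lipase, was 1.94-fold and 1.56-fold higher on HF in A/J and C57BL/6J (limma adjusted p = 0.150). Lipg, an endothelial lipase, was 1.91-fold lower on HF in C57BL/6J and 1.03-fold lower in A/J. Scarb1, a lipoprotein receptor, differed most between strains, with a strain term of 3.03 (limma, SE 0.35, adjusted p = 0.000179). That adjusted p was 0.376 at a floor of 200. Its scaled signal was 9018 on A/J LF, 3553 on A/J HF, 554 on C57BL/6J LF and 863 on C57BL/6J HF. The strain term thus averages 4.03 (log2) on LF with 2.04 on HF. On HF Scarb1 was 2.54-fold lower in A/J and 1.56-fold higher in C57BL/6J.

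Other apolipoproteins were mostly too dim to read, and 4 of 11 on the array were measured. In either strain 0 were at least 1.5-fold apart by diet. Over all measured genes 4.99% were higher on HF and 4.7% lower in A/J, and 5.13% and 4.63% in C57BL/6J. Apoa2, a protein of high-density lipoprotein, was 255 on both A/J arrays against 146 and 132 on C57BL/6J LF and HF, and was called higher in A/J (limma 0.88, SE 0.20, adjusted p = 0.0172). With a floor of 50 that adjusted p was 0.0536. Clu differed by at most 1.29-fold and Apoh, near the floor, by at most 1.34-fold.

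Among 15 measured transcription factors and cofactors known to act on apolipoprotein genes, 2 were at least 1.5-fold higher on HF in A/J. In C57BL/6J 1 was higher, and 0 were lower in either strain. Over all measured genes 4.99% were higher and 4.7% lower in A/J, and 5.13% and 4.63% in C57BL/6J. Nr0b2, a corepressor induced by bile acids, was 180 and 329 on A/J LF and HF and 95.9 and 307 on C57BL/6J LF and HF, and was called higher on HF (limma diet term 1.25, SE 0.22, adjusted p = 0.0301). That term moves with the floor, to 0.67 at a floor of 200, and the adjusted p was 0.109 under quantile normalization. Ppara, a fatty acid receptor, was higher in A/J by 0.91 (limma, SE 0.19, adjusted p = 0.0136), at 387 and 541 against 203 and 293, with adjusted p-values of 0.23 at a floor of 200, 0.255 with no filter and 0.17 with strain as the only term. Hnf4g, a receptor of enterocytes, and Cdx2, an intestinal homeobox factor, were 1.57-fold and 1.69-fold higher in A/J on HF without passing (limma adjusted p = 0.131 and 0.0773). Hnf4a, a known regulator of the Apoa1, Apoc3 and Apoa4 cluster and given here for that role, outside the naming rule, was 7337, 7218, 8325 and 7401 on A/J LF, A/J HF, C57BL/6J LF and C57BL/6J HF (limma adjusted p for diet = 0.947).

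**Figure D4:**
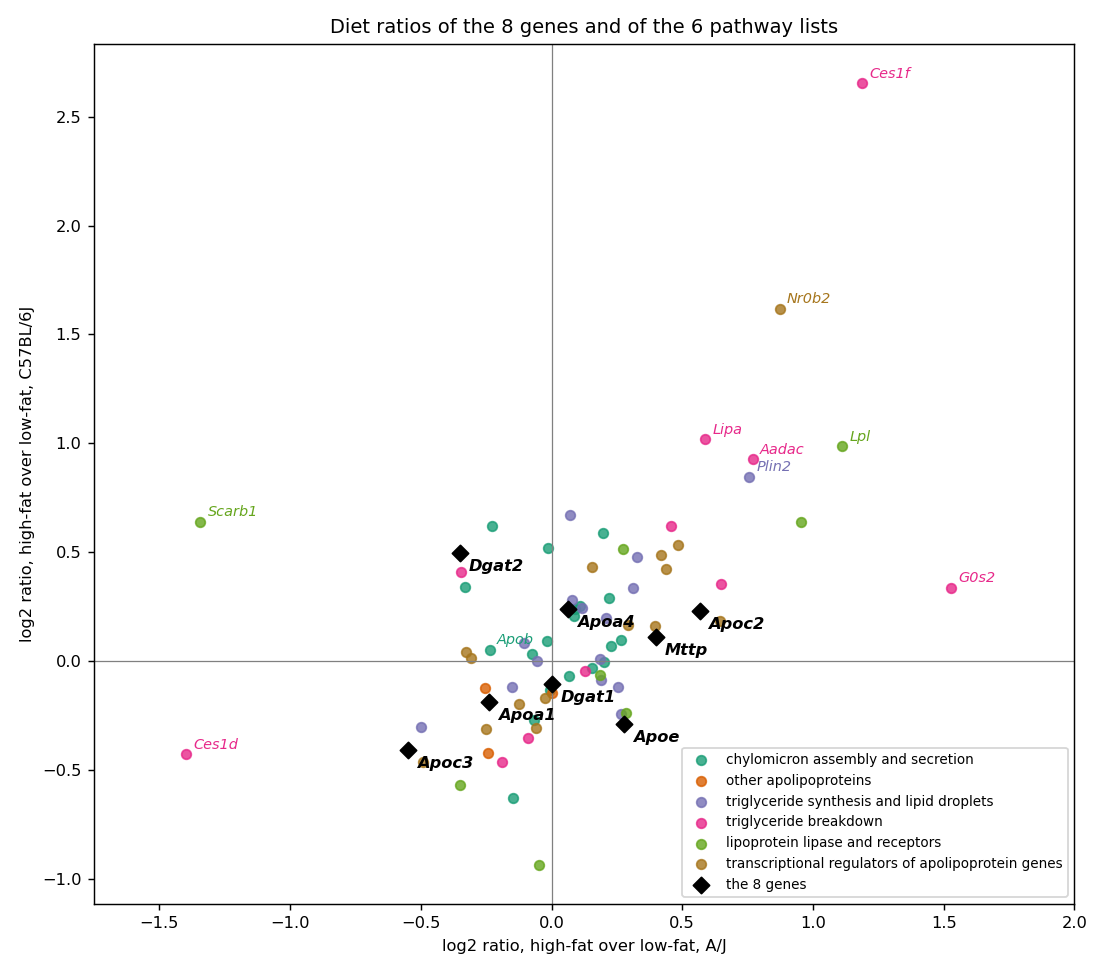
Log2 diet ratio in A/J (horizontal) against that in C57BL/6J (vertical) for the 8 genes (black diamonds) and for measured genes of the 6 pathway lists (coloured points), with some names. The 8 genes lie within 0.57 of 0 on both axes, while Ces1f reaches 1.19 and 2.66.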

How the data were processed

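The authors deposited 1 hybridisation intensity per probe set and array, computed from perfect match and mismatch probes of the Affymetrix Mouse Expression Array 430A with Microarray Suite 5.0 at default parameters, per the labels' protocols. The scale is linear; no label states the target to which arrays were scaled. Of 22690 probe sets, 64 controls were left out, and 20380 had 1 gene, 691 several and 1555 none in the platform annotation; 20351 matched RefSeq by gene number, which changed 0 symbols. Arrays were multiplied by 2.72, 2.80, 3.08 and 3.41 (A/J LF, A/J HF, C57BL/6J LF, C57BL/6J HF) to a mean of 500, trimmed by 2% at each end. Genes needed a mean scaled signal of 100. Strain and diet were additive terms in limma 3.58.1 (R 4.3.3) with Benjamini-Hochberg adjustment over 8036 genes. On simulated arrays the fit recovered the size of known changes, but with 1 residual degree of freedom false calls exceeded the nominal share in some runs, so adjusted p-values may be too small. Python 3.11.15 was used otherwise. The members and lists were chosen with earlier results of these data known. All 8 genes are described; from each list the text names genes called by limma and the 4 with the largest ratio, except where it says otherwise. Genes of like pattern were to be named for members spanning at least 2-fold, which none did. Alternatives were another scaling, floor, choice of probe set, filter and form of the fit.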

Additional observations from a re-analysis of the deposited data

Results flagged for a closer look

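Diet ratios of opposite sign in the strains, in every probe set, marked 3 of the 8 genes for a closer look. None of these differences was tested. Over all measured genes, by the brightest probe set, only 53.5% had the same sign in both strains, so opposite signs are common. For Dgat2 the log2 diet ratio of C57BL/6J minus that of A/J was 0.846, and 1.27 in the other probe set. For Apoe it was -0.565, from 1 probe set. For Dgat1, also with 1 probe set, it was -0.107, from ratios of 0.00053 (log2) in A/J and -0.11 in C57BL/6J. Unscaled, the A/J ratio of Dgat1 was -0.044, the sign of C57BL/6J.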

How the results depend on the processing

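Under each alternative run, 0 of the 8 genes were called by limma for diet and 0 for strain, also with every probe set as its own feature, a setting chosen after seeing the data. Unscaled (1 common factor for all arrays), 1 gene was at least 1.5-fold apart between the A/J diets, Apoc3 at 1.51-fold lower. With the mean of all probe sets, or the second brightest, 1 was at least 1.5-fold apart between the C57BL/6J diets, Dgat2 at 1.51-fold and 1.61-fold. Dgat2 stayed past 1.5-fold between strains on LF in each of the settings run, at 1.92-fold to 2.19-fold. Quantile normalization sets the brightest probe sets of all arrays to like values, and there the Apoa1 diet term was nil by construction. Leaving out shared probe sets leaves out Apoa1, Apoe and Dgat1. Over the 6 lists, limma called 0 genes for diet with quantile normalization, unscaled, and with floors of 50 and 200, and 7 with a pseudocount of 50. For strain it called 12 unscaled, 3 at a floor of 50 and 0 at a floor of 200. Genes at least 1.5-fold apart between strains on LF numbered 22 unscaled and 7 at a floor of 200, and on HF 26 unscaled. Over all genes, limma called 49 for diet and 604 for strain. The diet count was 19 with quantile normalization, 15 unscaled, 12 and 0 at floors of 50 and 200, 103 with the pseudocount, 9 with the mean of probe sets, 16 with the second brightest, 6 without shared probe sets, 0 without the filter, 123 with an intensity trend and 0 with diet as the only term. The strain count was 401, 741, 342 and 0, 781, 386, 405, 284, 0, 854 and 144 under the same settings in that order, the last with strain as the only term. No paired analysis was possible because each group has 1 array. Leaving out an array leaves no residual degree of freedom for both factors; the diet ratio of one strain is the value without the arrays of the other.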
